A study of Mus musculus with 8 samples.

Results

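The genes described here encode 9 subunits of the Mga and Max repressor complex of meiosis, a non-canonical Polycomb complex also called PRC1.6. The members were taken by name, namely *Mga*, *Max*, *E2f6*, *Tfdp1*, *Pcgf6*, *L3mbtl2*, *Rybp*, *Yaf2* and *Cbx3*, which are 9 of the 55421 genes in the count table. Each had 1 entry in the table, and all 9 were among the 20477 genes that passed the filter on low counts.

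MGA is a large scaffold that carries a T-box and a basic helix-loop-helix zipper, and it binds E-boxes as a dimer with MAX. E2F6 with its dimer partner TFDP1 reaches E2F sites, L3MBTL2 and CBX3 contact modified histones, and PCGF6 with RYBP or YAF2 joins a RING1-type ubiquitin ligase that marks histone H2A. In embryonic stem cells and early germ cells the complex is known for keeping germline and meiotic genes silent, and MAX also pairs with the MYC and MXD proteins, so that MGA competes with them for it.

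RNA-seq counts were available for 8 libraries of spermatogonial stem cell (SSC) cultures, started from testes of 6-day-old pups of C57BL/6XDBA/2 F1 hybrid background and kept on mouse embryonic fibroblast feeders in medium with bFGF and GDNF. No genetic change was named for these cultures. The 4 conditions were the vehicle control (Veh), 100 nM retinoic acid (RA), nutrient restriction in 90% Earle's Balanced Salt Solution (EBSS) with 10% complete medium (NR), and that medium with RA (NRRA), each for 2 days and with 2 libraries described in the study as independent biological replicates. The comparisons ask how each treatment, alone and combined, changed the culture. In NR and NRRA the growth factors of the complete medium were diluted along with its nutrients, so the parts of the 2 cannot be told apart. Library totals ranged from 19261333 to 30023585 counts.

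Germ cell identity and treatment were checked with marker lists, given as summed CPM, the read counts scaled to library size, for the libraries of each condition. Germ cell markers, 5 genes of which *Ddx4* and *Dazl* also stand among the targets below, summed to 716 to 747 CPM for Veh, 799 to 869 for RA, 903 to 926 for NR and 939 to 970 for NRRA. *Dazl* was the main part in Veh (311 CPM), and the list did not move together. In RA 2 rose and 2 fell (*Tdrd1* by 0.53 and *Dnd1* by 0.36 in log2). In NR 4 rose and 0 fell, and in NRRA 3 rose and 2 fell (*Tdrd1* by 0.15 and *Dnd1* by 0.28). Part of these rises depended on the processing. With GC and length removed, as explained below, *Dazl* was at 0.07 in RA and 0.04 in NRRA, neither passing, and fell in NR (-0.10). *Ddx4* then did not pass in RA (0.02) but still rose in NR (0.21) and NRRA (0.11). Such values are not given for the rest of the germ cell list. Undifferentiated spermatogonial markers (10 genes) ran at 966 to 1040, 527 to 537, 982 to 1010 and 420 to 433 CPM in the same order. In RA 1 of them rose (*Sall4*, from 129 to 154 CPM) and 9 fell. In NR 4 rose and 3 fell, with *Zbtb16* up from 164 to 244 CPM and *Etv5* down from 179 to 111, which the sum hides. In NRRA 1 rose (*Sall4*, 200 CPM) and 8 fell. Differentiating markers (5 genes, *Stra8* included) ran at 1300 to 1330, 1720 to 1740, 1070 to 1090 and 2070 to 2120 CPM. The latter sum was mostly *Ccnd2* in Veh (1280 CPM), which fell in all 3 treatments, whereas the other 4 rose in NR (*Stra8* 10.9-fold, *Kit* 3.75-fold, *Sohlh1* 2.1-fold and *Dmrtb1* 1.59-fold). In RA *Stra8* (8.92 in log2) and *Kit* (5.03) rose, and *Sohlh1* (-0.03) and *Dmrtb1* (-0.25) did not pass. In NRRA *Stra8* (9.47), *Kit* (5.82) and *Sohlh1* (0.86) rose and *Dmrtb1* fell (-1.38). Fibroblast markers (10 genes) summed to 9970 to 10200 CPM for Veh, 8120 to 8790 for RA, 21400 to 22500 for NR and 19100 to 19700 for NRRA, with *Col1a1* at 3740 CPM as the main part in Veh. In NR 9 of them rose and 0 fell, and in NRRA 8 rose and 2 fell (*Lum* by 0.74 and *Fbn1* by 0.10 in log2). Sertoli cell markers (5 genes) summed to 35.9 to 38.7, 24.6 to 25.1, 42.3 to 45.4 and 12.1 to 13.4 CPM in that order, mostly *Sox9* (31.9 CPM in Veh). *Wt1* rose 1.96-fold in RA and *Cldn11* 3-fold in NRRA, so the list did not move together. *Cldn11* was near the floor, at 5 and 2 counts in Veh and 21 and 11 in NRRA. *Amh* (0.15 CPM in Veh) and *Gata4* (0.529 CPM) were near it too. The 3 RA response genes, *Stra8* among them, summed to 2.08 to 2.35 CPM for Veh, 15.3 for NR, 792 to 811 for RA and 1050 to 1090 for NRRA. In NR this sum was mostly *Stra8* (14.4 CPM), and 1 of the 3 passed. *Cyp26a1* was at 0.456 CPM in Veh and 0.291 in NR, and *Rarb* at 0.431 and 0.545. From RA to NRRA *Stra8* and *Rarb* rose, whereas *Cyp26a1* fell from 118 to 87.8 CPM. The 4 amino acid response genes summed to 177 to 188 CPM, mostly *Sesn2* and *Asns*. Of these 4, *Trib3* (0.55, FDR-adjusted p = 0.000502) and *Chac1* (0.43, FDR-adjusted p = 0.0386) rose and *Asns* fell (-0.14) in NR, and 0 passed in RA or NRRA. No marker was at 0 in any library. In bulk RNA a smaller number of cells of a type and less RNA per cell cannot be told apart, and the part of the feeder share in the differences below was not tested.

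Sequences near the start sites of members and of known target genes are shown because the complex is held to reach DNA through E-boxes and E2F sites. The windows are RefSeq promoters on GRCm38.p6, from 250 bases before to 50 after the start, read along the gene's strand. Capitals mark the E-box letters CACGTG and the E2F letters TCCCGC, or GCGGGA where the match is on the other strand. The first 3 are members and the last 5 are targets.

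E2f6, chr12:16810897-16810932, plus strand: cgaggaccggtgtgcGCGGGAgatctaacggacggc

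Max, chr12:76962231-76962266, minus strand: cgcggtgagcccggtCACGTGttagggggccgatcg

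Tfdp1, chr8:13338505-13338693, plus strand: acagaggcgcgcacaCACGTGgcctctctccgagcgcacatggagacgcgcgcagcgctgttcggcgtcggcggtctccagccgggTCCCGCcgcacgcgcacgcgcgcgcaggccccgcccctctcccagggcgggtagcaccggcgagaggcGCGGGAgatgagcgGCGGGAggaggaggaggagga

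Stag3, chr5:138280324-138280527, plus strand: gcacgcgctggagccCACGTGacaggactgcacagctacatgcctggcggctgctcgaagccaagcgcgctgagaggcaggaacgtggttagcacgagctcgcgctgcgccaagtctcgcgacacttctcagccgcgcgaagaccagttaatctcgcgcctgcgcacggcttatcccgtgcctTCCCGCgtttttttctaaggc

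Smc1b, chr15:85131984-85132019, minus strand: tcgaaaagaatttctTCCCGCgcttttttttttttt

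Sycp3, chr10:88459425-88459564, plus strand: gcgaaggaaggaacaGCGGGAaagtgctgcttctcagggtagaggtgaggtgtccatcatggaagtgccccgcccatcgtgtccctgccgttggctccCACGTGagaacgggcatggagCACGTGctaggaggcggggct

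Tuba3a, chr6:125286180-125286215, minus strand: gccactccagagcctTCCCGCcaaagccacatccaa

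Tuba3b, chr6:145615842-145615877, plus strand: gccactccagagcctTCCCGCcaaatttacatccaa

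A window was listed for 7 of the 9 members, with no entry for *Rybp* and *Yaf2*. The E2F letters were found in *E2f6* and *Tfdp1* and the E-box letters in *Max* and *Tfdp1*. *Tfdp1* held both in the window shown, while its other listed window held the E2F letters only. Among all 32851 windows of this length the E2F letters occurred in 19.98%, the E-box letters in 7.15% and both in 1.99%. Of the 16 targets 15 had a window (*Gm4969* had none), with E2F letters in 8, E-box letters in 7 and both in 5. These are counts of genes, over 9 windows for the members and 16 for the targets, while the percentages are of windows. In the stretches above, *Stag3* and *Sycp3* hold both kinds, whereas *Smc1b*, *Tuba3a* and *Tuba3b* hold E2F letters. The motif pairs overlapped in 0 cases. A match describes letters in the window and not binding.

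Levels are given below as CPM for each library, and differences as log2 fold changes ± SE with the Benjamini-Hochberg adjusted p of edgeR's quasi-likelihood test over all 20477 genes. A gene passed at an adjusted p under 0.05. Since some calls depended on GC content and gene length, values with the trend of log2 CPM with GC content and exon length removed in each library (GC and length removed) are also given. For the members this is done where it changes a call, turns the sign or moves the value by over 1.5 times. For genes of the other lists only part of these values is given. RA, NR and NRRA were each compared with the same 2 Veh libraries, so these comparisons are not independent of each other.

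*Mga* and *Max*, the DNA-binding pair, moved in opposite directions with RA, though the rise of *Mga* did not pass with GC and length removed. *Mga* (ENSMUSG00000033943, chr2:119897228-119969581, plus strand, GRCm38) measured 162 and 180 CPM for Veh, 209 and 234 for RA, 260 and 257 for NR and 248 and 252 for NRRA. All treated libraries were above both Veh libraries, the RA libraries lay between Veh and the nutrient-restricted ones, and NRRA lay just under NR. It rose by 0.38 ± 0.0525 in RA (FDR-adjusted p = 1.85e-06), by 0.60 ± 0.0523 in NR (FDR-adjusted p = 4.58e-10) and by 0.55 ± 0.0519 in NRRA (FDR-adjusted p = 1.04e-09). RA added to nutrient restriction gave no further change that passed (-0.05 ± 0.0505, FDR-adjusted p = 0.463 for NRRA against NR), and NRRA exceeded RA by 0.17 ± 0.0507 (FDR-adjusted p = 0.0079). The latter rested on single libraries, with 0.10 and no pass without RA replicate 1, 0.26 without RA replicate 2, and 0.16 and no pass without NRRA replicate 2.

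*Mga* has 15340 exon bases at 42.2% GC, the longest of the members. Its rise with GC and length removed was 0.08 in RA (FDR-adjusted p = 0.0672), 0.26 in NR (FDR-adjusted p = 2.94e-07) and 0.10 in NRRA (FDR-adjusted p = 0.0184). Under that setting the difference between NRRA and RA was 0.02 (FDR-adjusted p = 0.746), and that between NRRA and NR became -0.16 (FDR-adjusted p = 0.000232). The value of *Mga* against Veh was above 0 under both settings, but its size and the call for RA depended on them. Fibroblast marker sums were also higher in NR and NRRA than in Veh. The *Mga* count sums all transcripts and does not separate splice forms.

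*Max* (ENSMUSG00000059436, chr12:76937269-76962201, minus strand) measured 79.3 and 78 CPM for Veh, 63.7 and 60.7 for RA, 82.2 and 77.6 for NR and 61.1 and 65.3 for NRRA. The 4 libraries with RA were below the 4 without it, and NR overlapped Veh as NRRA overlapped RA. It fell by 0.34 ± 0.0564 on the log2 scale in RA (FDR-adjusted p = 1.97e-05), by 0.31 ± 0.0553 in NRRA against Veh (FDR-adjusted p = 2.22e-05) and by 0.34 ± 0.0544 in NRRA against NR (FDR-adjusted p = 1.28e-05). NR alone did not pass (0.02 ± 0.0553, FDR-adjusted p = 0.79; -0.02 with GC and length removed), nor did NRRA against RA (0.03 ± 0.0555, FDR-adjusted p = 0.749; -0.01 with GC and length removed). The RA effect under nutrient restriction minus that in complete medium was 0.01, with a 95% interval of -0.16 to 0.17.

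**Figure D1:**
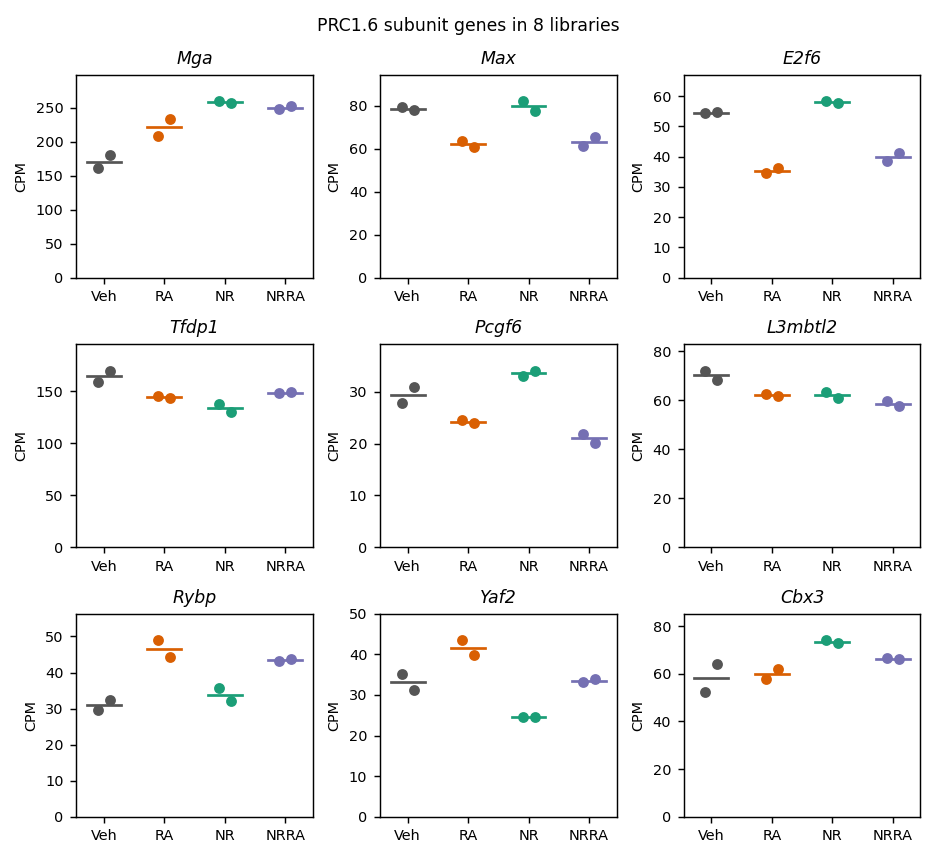
Levels of the 9 subunit genes, 1 panel each, in CPM with TMM-scaled totals (y axis) for the 2 libraries of each condition (points; horizontal bars are means). *Max* and *E2f6* are lower in the 4 libraries with RA than in the 4 without, *Rybp* is higher in them, and *Mga* is above Veh in all treated libraries (209 to 260 against 162 and 180 CPM).

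*E2f6*, the repressive E2F of the complex, had the largest fall of any member in RA. Its levels (ENSMUSG00000057469, chr12:16810963-16839742, plus strand) were 54.3 and 54.9 CPM for Veh, 34.6 and 36.1 for RA, 58.4 and 57.9 for NR and 38.5 and 41.2 for NRRA. The RA and NRRA libraries were well below the others, with NRRA slightly above RA and NR slightly above Veh. It fell by 0.63 ± 0.0612 on the log2 scale in RA (FDR-adjusted p = 5.29e-09), by 0.45 ± 0.0589 in NRRA (FDR-adjusted p = 2.45e-07) and by 0.54 ± 0.0574 in NRRA against NR (FDR-adjusted p = 1.44e-08). NR alone gave 0.09 ± 0.058 (FDR-adjusted p = 0.221; 0.06 with GC and length removed). NRRA stood 0.17 ± 0.0607 above RA (FDR-adjusted p = 0.0256), a call lost with GC and length removed (0.13, FDR-adjusted p = 0.062), with DESeq2 (0.15), and without either RA library, either NR library or NRRA replicate 2 (0.12 to 0.21). The falls with RA passed under every setting and with each library left out, between -0.66 and -0.58 for RA and between -0.51 and -0.41 for NRRA against Veh.

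*Tfdp1*, the dimer partner that E2F6 shares with the other E2F proteins, changed less. It measured (ENSMUSG00000038482, chr8:13338751-13378448, plus strand) 159 and 170 CPM for Veh, 146 and 144 for RA, 138 and 130 for NR and 148 and 149 for NRRA. Every treated library was under both Veh libraries, and NR was the lowest. It fell by 0.19 ± 0.0478 in RA (FDR-adjusted p = 0.00251; 0.12 without Veh replicate 2), by 0.30 ± 0.0481 in NR (FDR-adjusted p = 1.27e-05) and by 0.15 ± 0.0472 in NRRA (FDR-adjusted p = 0.0094). The NRRA value with GC and length removed was -0.24. Against NR, NRRA was higher by 0.15 ± 0.0473 (FDR-adjusted p = 0.0113), which did not pass with DESeq2 (0.13) or without NR replicate 2 (0.09) or either NRRA library (0.16 and 0.15). Against RA it was 0.04 ± 0.0471 (FDR-adjusted p = 0.554; -0.01 with GC and length removed). For NRRA against Veh the call was lost without Veh replicate 2 (-0.10) and without NRRA replicate 1 (-0.14).

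*Pcgf6*, the ring finger subunit that defines this Polycomb complex, was lowest in NRRA. It measured (ENSMUSG00000025050, chr19:47033617-47050906, minus strand) 27.8 and 31 CPM for Veh, 24.5 and 23.9 for RA, 33.1 and 34.1 for NR and 21.8 and 20.2 for NRRA. No groups overlapped, with NR above Veh above RA above NRRA. The fall was 0.28 ± 0.0756 in RA (FDR-adjusted p = 0.00365), 0.48 ± 0.0749 in NRRA (FDR-adjusted p = 3.81e-06) and 0.68 ± 0.0717 in NRRA against NR (FDR-adjusted p = 1.56e-08). NR was higher than Veh by 0.19 ± 0.0725 (FDR-adjusted p = 0.0324), a call lost with GC and length removed (0.07, FDR-adjusted p = 0.434), with DESeq2 (0.19), in a fit of those 4 libraries only (0.20), and without Veh replicate 1 (0.13) or NR replicate 2 (0.19); it was 0.29 without Veh replicate 2. For RA against Veh the call was lost without Veh replicate 2 (-0.18), and with GC and length removed the fall was 0.42. NRRA was under RA by 0.20 ± 0.0749 (FDR-adjusted p = 0.0323), which did not pass with DESeq2 (-0.22), with no filter on low counts (-0.18), or without either RA library (-0.19 and -0.22) or NRRA replicate 2 (-0.15).

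*L3mbtl2*, an MBT-domain protein, had small falls in all treatments. Its levels (ENSMUSG00000022394, chr15:81663889-81688315, plus strand) were 72.2 and 68.4 CPM for Veh, 62.8 and 61.7 for RA, 63.5 and 61.1 for NR and 59.8 and 57.6 for NRRA. Both Veh libraries were above all 6 treated ones, which lay close together. The fall was 0.26 ± 0.0548 in NRRA (FDR-adjusted p = 0.000194), 0.18 ± 0.0555 in RA (FDR-adjusted p = 0.0116) and 0.18 ± 0.0556 in NR (FDR-adjusted p = 0.0113). The RA call was lost with GC and length removed (-0.09, FDR-adjusted p = 0.114), in a fit of those 4 libraries only (-0.14), and without Veh replicate 1 (-0.11) or RA replicate 2 (-0.16), and the NR call without Veh replicate 1 (-0.12) or either NR library (-0.18 and -0.13). Neither NRRA against RA (-0.08 ± 0.0544, FDR-adjusted p = 0.232) nor NRRA against NR (-0.08 ± 0.0545, FDR-adjusted p = 0.222; -0.05 with GC and length removed) passed. Of its exon bases 17.2% overlap *Chadl* on the opposite strand, and the use of strand in counting is not given in the sources used here.

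*Rybp* and *Yaf2* are paralogues that take the same place beside the ubiquitin ligase, and both were higher in RA. *Rybp* (ENSMUSG00000072872, chr6:100228565-100287485, minus strand) measured 29.7 and 32.5 CPM for Veh, 49 and 44.3 for RA, 35.7 and 32 for NR and 43.1 and 43.8 for NRRA. The 4 libraries with RA were above the 4 without it, and NR overlapped Veh. It rose by 0.58 ± 0.0717 in RA (FDR-adjusted p = 2.81e-07), by 0.48 ± 0.0707 in NRRA (FDR-adjusted p = 1.69e-06) and by 0.37 ± 0.068 in NRRA against NR (FDR-adjusted p = 7.87e-05). These rises passed with GC and length removed too, at 0.40 in RA and 0.24 in NRRA (FDR-adjusted p = 0.00155). NR alone gave 0.12 ± 0.0746 (FDR-adjusted p = 0.223; -0.04 with GC and length removed), and NRRA against RA gave -0.10 ± 0.0653 (FDR-adjusted p = 0.26), which passed with GC and length removed (-0.16, FDR-adjusted p = 0.0184).

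*Yaf2* (ENSMUSG00000022634, chr15:93284278-93336935, minus strand) measured 35.1 and 31.3 CPM for Veh, 43.5 and 39.8 for RA, 24.5 and 24.6 for NR and 33.1 and 33.9 for NRRA. RA was highest and NR lowest, and the NRRA libraries fell within the range of Veh. It rose by 0.32 ± 0.0695 in RA (FDR-adjusted p = 0.000473), fell by 0.44 ± 0.0746 in NR (FDR-adjusted p = 2.73e-05) and gave 0.01 ± 0.0695 in NRRA against Veh (FDR-adjusted p = 0.88). NRRA was thus above NR by 0.45 ± 0.0708 (FDR-adjusted p = 8.67e-06) and under RA by 0.31 ± 0.0658 (FDR-adjusted p = 0.000425). The RA value with GC and length removed was 0.18 (FDR-adjusted p = 0.0291) and the NRRA value turned to -0.16 (FDR-adjusted p = 0.0431).

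*Cbx3*, which encodes heterochromatin protein HP1 gamma, was the member with a call whose sign turned with the processing. Its levels (ENSMUSG00000029836, chr6:51470360-51483704, plus strand) were 52.3 and 64.1 CPM for Veh, 57.8 and 61.8 for RA, 74.1 and 72.9 for NR and 66.5 and 66.1 for NRRA. The Veh libraries were far apart and enclosed those of RA, while NR and NRRA were above both. It rose by 0.34 ± 0.0682 in NR (FDR-adjusted p = 0.000215) and by 0.19 ± 0.0675 in NRRA (FDR-adjusted p = 0.018), and RA gave 0.04 ± 0.0693 (FDR-adjusted p = 0.649). Leaving out Veh replicate 1 gave 0.21 in NR and 0.05 in NRRA (FDR-adjusted p = 0.487), and leaving out Veh replicate 2 gave 0.34 in NRRA. The NRRA call was also lost with DESeq2 (0.17), in a fit of those 4 libraries only (0.18), and without either NRRA library (0.19 in both). With GC and length removed it was 0.02 in NR (FDR-adjusted p = 0.742), -0.29 in RA (FDR-adjusted p = 1.49e-05) and -0.28 in NRRA (FDR-adjusted p = 8.76e-06), so the sign turned. NRRA against RA was 0.15 ± 0.0659 (FDR-adjusted p = 0.081; 0.01 with GC and length removed, FDR-adjusted p = 0.87) and NRRA against NR -0.15 ± 0.0648 (FDR-adjusted p = 0.0685; -0.31 with GC and length removed). *Cbx3* has the lowest GC content of the members, 38.7%, and 8 annotated *Cbx3* pseudogenes can share its reads.

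**Figure D2:**
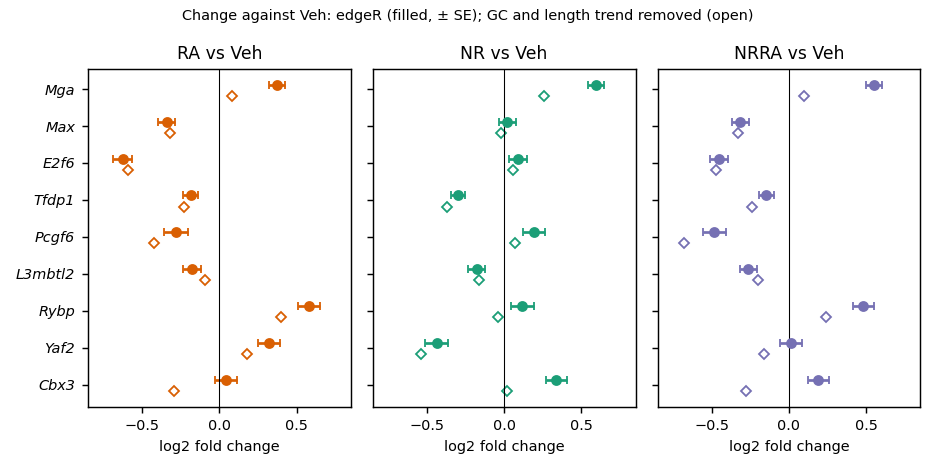
Log2 fold changes of the 9 subunit genes against Veh (x axis) in RA, NR and NRRA. Filled points with bars are values ± SE from edgeR and open diamonds the values with GC and length removed. *E2f6* and *Max* sit left of 0 in RA and NRRA by both, *Mga* moves towards 0 without the trend (0.55 to 0.10 in NRRA), and *Cbx3* changes sides in NRRA (0.19 to -0.28).

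Counted together, the members did not move one way. In RA 3 of 9 rose (*Mga*, *Rybp*, *Yaf2*) and 5 fell (*Max*, *E2f6*, *Tfdp1*, *Pcgf6*, *L3mbtl2*), where 19.8% of all tested genes rose and 23.4% fell. In NR 3 rose (*Mga*, *Pcgf6*, *Cbx3*) and 3 fell (*Tfdp1*, *L3mbtl2*, *Yaf2*), against 21.7% and 22.2% of all genes. In NRRA 3 rose (*Mga*, *Rybp*, *Cbx3*) and 5 fell (*Max*, *E2f6*, *Tfdp1*, *Pcgf6*, *L3mbtl2*), against 30.1% and 28.7%. Removing GC and length left 2 higher and 5 lower in RA, 1 higher (*Mga*) and 3 lower in NR, and 2 higher (*Mga*, *Rybp*) and 7 lower in NRRA, where *Cbx3* was among the lower in RA and *Cbx3* and *Yaf2* in NRRA. Under that setting 9091, 9704 and 12256 of all 20477 genes passed in RA, NR and NRRA, in either direction. Rises and falls were mixed among the members in each comparison. Their median log2 change was -0.18, 0.09 and -0.15 in RA, NR and NRRA, beside -0.019, 0.006 and 0.03 over all genes.

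NRRA against RA passed for 4 members, 2 higher (*Mga*, *E2f6*) and 2 lower (*Pcgf6*, *Yaf2*), where 20.9% of all genes were higher and 19.4% lower. With DESeq2 the count was 2, and with GC and length removed, where 9109 of all 20477 genes passed, 0 were higher and 3 lower (*Pcgf6*, *Rybp*, *Yaf2*). It was 1 without RA replicate 1, 2 without RA replicate 2 and 1 without NRRA replicate 2. NRRA against NR passed for 6, with *Tfdp1*, *Rybp* and *Yaf2* higher and *Max*, *E2f6* and *Pcgf6* lower, against 21.3% and 22.1% of all genes. With GC and length removed, where 9531 of all 20477 genes passed, 3 were higher and 5 lower, *Mga* and *Cbx3* added. None of the members (0 of 9) changed at least 2-fold in any comparison, where such changes were seen against Veh in 7.49% of all genes with RA, 8.29% with NR and 15.9% with NRRA, and in 8.29% for NRRA against RA and 8.7% for NRRA against NR.

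Whether nutrient restriction altered the RA effect was tested as the interaction, the difference of NRRA from NR minus that of RA from Veh. It was higher for *Tfdp1* and lower for *Mga* and *Pcgf6*, 1 and 2 of 9 members, where 6.37% of all genes were higher, 6.58% lower and 2.24% at least 2-fold different. *Mga* had -0.42 ± 0.0728 (FDR-adjusted p = 0.000162), from a rise in complete medium that passed and a value under nutrient restriction that did not. With GC and length removed its value was -0.24 (FDR-adjusted p = 0.000597). There the rise in complete medium did not pass (0.08, FDR-adjusted p = 0.0672), and the value under nutrient restriction did (-0.16, FDR-adjusted p = 0.000232). *Tfdp1* had 0.34 ± 0.0673 (FDR-adjusted p = 0.000931) and *Pcgf6* -0.40 ± 0.104 (FDR-adjusted p = 0.0107), the latter not passing without NRRA replicate 2 (-0.34). The other members gave 0.08 ± 0.084 for *E2f6* (FDR-adjusted p = 0.601), 0.09 ± 0.0778 for *L3mbtl2* (FDR-adjusted p = 0.504), -0.21 ± 0.0991 for *Rybp* (FDR-adjusted p = 0.177), 0.13 ± 0.0995 for *Yaf2* (FDR-adjusted p = 0.459) and -0.19 ± 0.0949 for *Cbx3* (FDR-adjusted p = 0.209). With GC and length removed these were 0.07, 0.05, -0.12, 0.20 and -0.01 in the same order, none of them passing. Without Veh replicate 2 the count was 5, with *Rybp* at -0.31 and *Cbx3* at -0.38.

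To compare the subunits with each other, levels were also expressed per length as RPKM (CPM per 1000 exon bases, counting all annotated exons), as means of the 2 libraries. In Veh the order was *Tfdp1* (44.9), *Max* (21.9), *Yaf2* (17.7), *L3mbtl2* (11.8), *Mga* (11.2), *Cbx3* (9.71), *E2f6* (9.65), *Rybp* (6.57) and *Pcgf6* (5.85). From *L3mbtl2* to *E2f6* the libraries of neighbours overlapped, so that part of the order was not resolved. In RA *Yaf2* (22.3) stood above *Max* (17.3) and *Mga* (14.4) above *L3mbtl2* (10.5), while *E2f6* (6.24) lay under *Rybp* (9.84). In NRRA *Tfdp1* (40.6) was followed by *Yaf2* (17.9), *Max* (17.6) and *Mga* (16.3), the first pair of these overlapping, and *Pcgf6* (4.18) was last, as in all 4 conditions by this length. NR kept *Max* (22.2) second, ahead of *Mga* (16.9) and *Yaf2* (13.1), with *Rybp* (7.13) and *Pcgf6* (6.67) overlapping. Below *Tfdp1*, which was first by both lengths, the order depended on the length used. Per longest transcript *Max* was second in all 4 conditions, also in RA (32 against 22.3 RPKM for *Yaf2*), *Rybp* was last in Veh (6.91 against 10.4 for *Pcgf6*) and in NR (7.51 against 11.8), and *Mga* in NRRA was at 17.9 against 32.5 for *Max*.

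**Figure D3:**
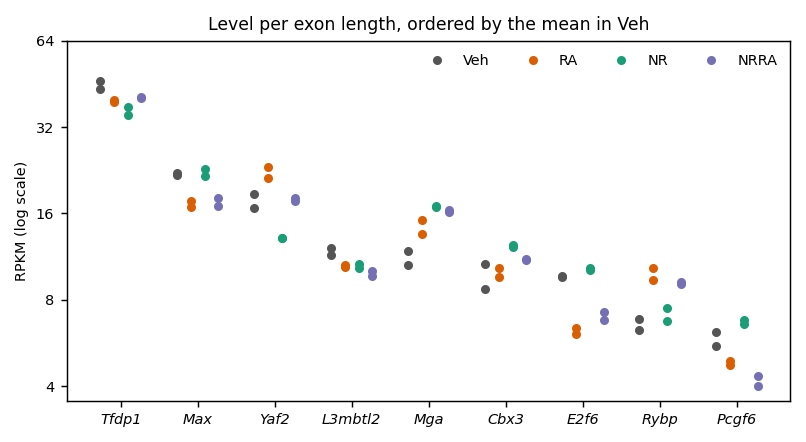
Levels of the 9 subunit genes per exon length, in RPKM on a log axis, for the 2 libraries of each condition (points). *Tfdp1* is highest and *Pcgf6* lowest by the mean in all 4 conditions (44.9 and 5.85 RPKM in Veh); per longest transcript *Rybp* is lowest in Veh and NR.

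Ratios of per-length levels of subunits that pair describe the same values within a library. *Mga* over *Max* was 0.479 and 0.542 for Veh, 0.77 and 0.904 for RA, 0.743 and 0.776 for NR and 0.952 and 0.905 for NRRA, so it was higher in all treated libraries. *Pcgf6* over *Mga* was 0.524 and 0.525 for Veh, 0.358 and 0.312 for RA, 0.388 and 0.404 for NR and 0.269 and 0.245 for NRRA. *E2f6* over *Tfdp1* was 0.215 ± 0.00849 (SD, n = 2) for Veh, 0.158 ± 0.00707 for RA, 0.281 ± 0.0099 for NR and 0.174 ± 0.00778 for NRRA, lower with RA and higher in NR. *Rybp* over *Yaf2* was 0.372 ± 0.053 for Veh, 0.442 ± 0.00424 for RA, 0.544 ± 0.0445 for NR and 0.512 ± 0.00283 for NRRA. These ratios were not tested, depend on the exon lengths, and are levels of RNA and not of protein.

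Other subunits and enzymes that work with the complex, 8 genes, all passed in NRRA, where 30.1% of all tested genes rose and 28.7% fell. In RA 2 rose and 2 fell, in NR 3 rose and 2 fell, and in NRRA 6 rose and 2 fell, with medians of 0.06, 0.10 and 0.24. These counts with GC and length removed were 2 and 3, 1 and 4, and 4 and 3. The ubiquitin ligase gene *Rnf2* (RING1B) measured 46.2 and 49.3 CPM for Veh, 75.8 and 76.4 for RA, 54.3 and 54.1 for NR and 95.5 and 93.9 for NRRA. It rose by 0.67 ± 0.0559 in RA (FDR-adjusted p = 2.45e-10), 0.18 ± 0.0577 in NR (FDR-adjusted p = 0.0113) and 0.99 ± 0.0543 in NRRA (FDR-adjusted p = 1.72e-14), and by 0.35, -0.10 and 0.55 with GC and length removed, where NR did not pass. Its paralogue *Ring1* rose in NRRA (0.40 ± 0.113, FDR-adjusted p = 0.00323). The WD repeat subunit *Wdr5* fell in all 3 (-0.18, -0.15 and -0.20), as did the deacetylase gene *Hdac1* in NR and NRRA (-0.26 and -0.14). In NRRA *Hdac2* (0.23), the histone methyltransferase genes *Ehmt1* (0.25) and *Ehmt2* (0.12) and the E2F partner *Tfdp2* (0.30) rose. *Ehmt2* had fallen in RA (-0.25) and risen in NR (0.33), and *Tfdp2* rose in both (0.19 and 0.31). Removing GC and length turned *Hdac2* in NRRA to -0.10 (FDR-adjusted p = 0.0246), took the calls of *Tfdp2* (0.04, 0.10 and 0.02) and moved *Ehmt2* to -0.13 in RA and 0.21 in NRRA.

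Among 8 genes whose proteins compete with MGA for MAX, 1 rose and 4 fell in RA, 4 rose and 3 fell in NR, and 3 rose and 3 fell in NRRA. For RA, 19.8% of all tested genes were higher and 23.4% lower. The NR shares were 21.7% and 22.2%, those for NRRA 30.1% and 28.7%. Removing GC and length changed the RA counts to 1 higher and 5 lower, since *Mxi1* then passed (-0.22, FDR-adjusted p = 0.00777). The NR counts stayed at 4 and 3, while those for NRRA became 3 and 4, again with *Mxi1* lower (-0.21). The competitors past 2-fold were *Mycn* and *Mycl*. *Mycn*, a gene of the MYC family, measured 59.4 and 54.4 CPM for Veh, 17.4 and 16.7 for RA, 54.8 and 54.5 for NR and 8.86 and 7.67 for NRRA. It fell by 1.74 ± 0.0731 in RA (FDR-adjusted p = 3.01e-16) and by 2.79 ± 0.0794 in NRRA (FDR-adjusted p = 1.46e-20), and its interaction was -0.99 ± 0.112 (FDR-adjusted p = 3.9e-07). *Mycl* rose from 3.81 and 3.91 CPM in Veh to 11.1 and 12 in NR and 9.36 and 9.73 in NRRA, by 1.58 ± 0.138 (FDR-adjusted p = 4.19e-10) and 1.31 ± 0.139 (FDR-adjusted p = 7.87e-09). Of the 5 other PCGF genes, which define the other Polycomb complexes, *Pcgf5* rose in RA and *Pcgf5* and *Bmi1* rose in NR and NRRA, and 0 fell. The values were 0.25, 0.45 and 0.81 for *Pcgf5* in RA, NR and NRRA and 0.57 and 0.42 for *Bmi1* in the latter pair. With the trend kept, *Pcgf3* did not pass, but it fell with GC and length removed (-0.14, -0.32 and -0.37). In that setting the values were -0.08, 0.09 and 0.31 for *Pcgf5*, where only NRRA passed, and 0.30 and 0.01 for *Bmi1*, where only NR passed. Of the 7 other E2F genes, 0 rose and 1 fell in RA, 0 rose and 4 fell in NR, and 2 rose and 4 fell in NRRA, with 0 past 2-fold, beside the shares of all genes given above. With GC and length removed 1 rose (*E2f4*, 0.13) and 1 fell in RA, 0 rose and 5 fell in NR (*E2f3* added, -0.15), and 2 rose and 4 fell in NRRA. *E2f8* in NR was at -0.99, and past 2-fold in that setting (-1.01).

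The 16 germline genes known as repressed by the complex were taken as its target list. In RA 9 rose and 1 fell, in NR 11 rose and 3 fell, and in NRRA 11 rose and 3 fell, with medians of 0.23, 0.29 and 0.30. The shares of all tested genes that rose and fell were 19.8% and 23.4% for RA, 21.7% and 22.2% for NR, and 30.1% and 28.7% for NRRA. With GC and length removed 8 rose and 3 fell, 9 rose and 5 fell, and 8 rose and 5 fell, with medians of 0.10, 0.14 and 0.07. Because the list was chosen with results of these libraries known, its direction is not independent evidence. At least 2-fold higher were 3 with RA, 2 with NR and 4 with NRRA, while 7.49%, 8.29% and 15.9% of all genes changed that much in either direction.

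*Stra8*, the RA-induced gatekeeper of meiosis, measured 1.14 and 1.51 CPM for Veh, 632 and 653 for RA, 14.6 and 14.3 for NR and 917 and 957 for NRRA. All groups were apart, with an NRRA rise of 9.47 ± 0.0799 (FDR-adjusted p = 1.25e-31). The meiotic cohesin gene *Stag3* measured 155 and 148 CPM for Veh, 219 and 218 for RA, 197 and 193 for NR and 304 and 301 for NRRA. It rose by 0.53 ± 0.0432, 0.36 ± 0.0434 and 1.00 ± 0.0426 in RA, NR and NRRA, and its interaction did not pass (0.10, FDR-adjusted p = 0.288).

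*Smc1b*, another meiotic cohesin gene, measured 74.1 and 72.6 CPM for Veh, 108 and 125 for RA, 105 and 106 for NR and 180 and 172 for NRRA, with an NRRA rise of 1.26 ± 0.0572 (FDR-adjusted p = 2.85e-16; 0.84 with GC and length removed). *Sycp3*, a gene of the synaptonemal complex, measured 9.01 and 10.8 CPM for Veh, 18.2 and 21 for RA, 19.5 and 19.9 for NR and 36 and 35.8 for NRRA. It rose by 1.86 ± 0.0905 in NRRA (FDR-adjusted p = 1.35e-15; 1.24 with GC and length removed), and 52.2% of its exon bases overlap *Chpt1* on the opposite strand. *Gm4969*, which encodes the STRA8 partner MEIOSIN, measured 1.14 and 0.938 CPM for Veh, 3.11 and 3.61 for RA, 2.89 and 3.34 for NR and 9.79 and 11.3 for NRRA, a rise of 3.34 ± 0.188 in NRRA (FDR-adjusted p = 2.77e-14).

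Those that fell in NRRA were the piRNA pathway gene *Mael* (-0.15) and the tubulin genes *Tuba3a* (-0.21) and *Tuba3b* (-0.13). These were -0.35, -0.14 and -0.07 with GC and length removed, where *Tuba3b* did not pass, and *Stk31* (-0.24), *Slc25a31* (-0.26) and *Tdrkh* (-0.12) fell there too. *Tuba3a* and *Tuba3b* are close paralogues, so their counts are uncertain where reads fit both. E2F letters stood in the windows of *Tuba3a*, *Tuba3b* and *Mael* as in those of *Stag3*, *Smc1b* and *Sycp3*. No relation between changes of members and of targets was tested.

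**Figure D4:**
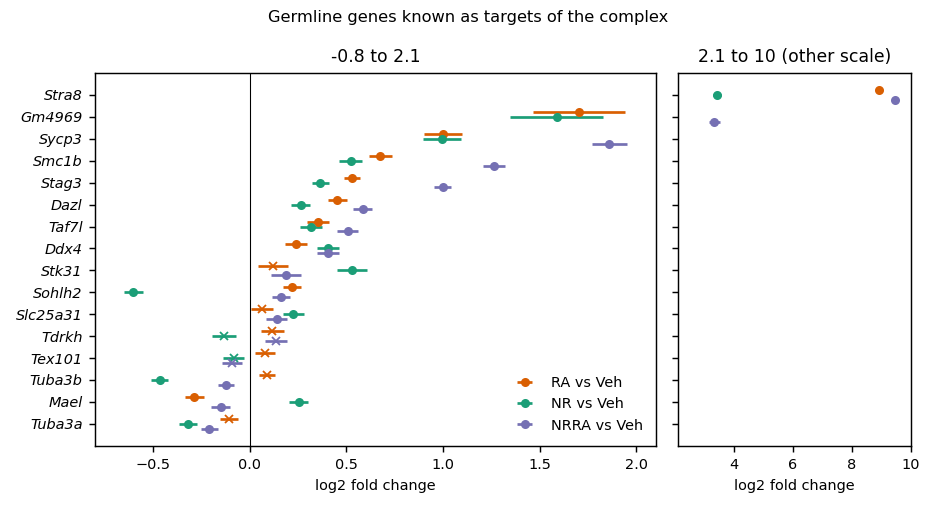
Log2 fold changes against Veh (x axis) of the 16 target genes in RA, NR and NRRA, in 2 panels with different scales. Circles mark values that passed the test and crosses those that did not. *Stra8* reaches 9.47 in NRRA, *Gm4969*, *Sycp3*, *Smc1b* and *Stag3* follow, and *Tuba3a*, *Tuba3b* and *Mael* lie left of 0.

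The genes whose pattern over the 8 libraries was most like that of *Mga* were *Ccdc50*, *Ubn2* and *Rictor*, with root mean square differences of 0.041, 0.047 and 0.058 in centred log2 CPM among 10898 genes of at least 10 CPM. *Ccdc50* changed by 0.39, 0.66 and 0.60 in RA, NR and NRRA. For *Max* they were *Ddx31* (0.03), *Mtif3* (0.036) and *Pfdn5* (0.038), and *Ddx31* changed by -0.31, 0.03 and -0.32. These values were taken with the GC and length trend kept, and the part of that trend in the likeness was not tested.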

How the data were processed

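RNA was measured in 8 libraries of cultured spermatogonia, 2 per condition, grouped by the sample labels. Per the labels the submitters' processing notes name STAR 2.6.1c, featureCounts 1.6.4 and mm10, and the authors deposited raw counts per gene, whole numbers without normalization. The annotation release and the use of strand in counting are not given in the sources used here. The table had 0 columns without a sample. Of its 55421 identifiers, 55240 matched GENCODE M21, which gave GRCm38 coordinates, exon lengths and GC content.

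Counts were filtered with filterByExpr, leaving 20477 genes, scaled by TMM and fitted in edgeR 4.0.16 (R 4.3.3) with 1 coefficient for each of 4 conditions over all 8 libraries. This left 4 residual degrees of freedom and a biological coefficient of variation of 3.35%. The quasi-likelihood test was adjusted by Benjamini-Hochberg, with SE = |log2 fold change| divided by the square root of F. DESeq2 1.42.0, other scalings and filters, left-out libraries, a replicate block, and removal of GC and length trends by splines of 5 degrees of freedom were tried. Figures were drawn in Python 3.11.15 with matplotlib 3.10.9. The default edgeR and DESeq2 fits were tried on simulated counts, for RA and NRRA against Veh only. The interaction, the GC and length removal and the other alternatives were not tried on simulated counts.

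The members and lists were chosen with earlier results of these data known. All 9 members were named, partners that passed, competitors past 2-fold, *Pcgf5* and *Bmi1* as the PCGF genes that passed, and targets *Stag3*, *Smc1b*, *Sycp3*, *Stra8*, *Gm4969* and those past 2-fold. *Mael*, *Tuba3a*, *Tuba3b*, *Stk31*, *Slc25a31*, *Tdrkh*, *Pcgf3* and single cell type markers were added after their values were seen. With 19261333 to 30023585 counts per library, p-values cover the spread between libraries only. That spread was shared over all 4 conditions, while the chi-square per gene between replicates was 3.93 for Veh, 2.12 for RA, 1.58 for NR and 1.73 for NRRA. The comparisons with Veh and the interaction use the Veh libraries, so their SE and p-values may be too small. Knockout, testis and single-cell experiments of the study were not analysed here.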

Additional observations from a re-analysis of the deposited data

Results flagged for a closer look

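For 3 members the RA effect under nutrient restriction (NRRA against NR) differed from that in complete medium (RA against Veh) by the interaction test of edgeR. For *Mga* the difference was -0.42 (FDR-adjusted p = 0.000162), from 0.38 in complete medium and -0.05 under nutrient restriction. For *Tfdp1* it was 0.34 (FDR-adjusted p = 0.000931), from -0.19 and 0.15, so the sign turned. For *Pcgf6* it was -0.40 (FDR-adjusted p = 0.0107), from -0.28 and -0.68. With GC and length removed the *Mga* difference was -0.24, from 0.08 in complete medium, which did not pass, and -0.16 under nutrient restriction, which did. The fibroblast marker sums were at 19100 to 22500 CPM in NR and NRRA against 8120 to 10200 CPM in Veh and RA, and their part in these differences was not tested. With 2 libraries per condition single outlying libraries could not be tested.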

How the results depend on the processing

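Of 35 member and comparison pairs that passed, 13 lost the pass under at least 1 alternative and 8 others gained it. A pass turned sign under 2 alternatives, both for *Cbx3* in NRRA against Veh. Removing the GC and length trend turned *Cbx3* in RA (-0.29) and NRRA (-0.28), *Max* in NR (-0.02), *Rybp* in NR (-0.04), *Yaf2* in NRRA (-0.16), and *Max* and *Tfdp1* in NRRA against RA (-0.01 each). With the replicate block besides, these were -0.30, -0.28, -0.01, -0.04, -0.16, -0.01 and -0.01. *Yaf2* in NRRA was -0.01 with DESeq2 and with RLE size factors, and the *Max* interaction -0.01 with DESeq2, RLE and upper-quartile scaling and -0.05 at a mean of at least 50 counts, none of them passing. The cause was not tested.

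The replicate block alone left the counts of members passing at 8, 6, 8, 4, 6 and 3 for RA, NR and NRRA against Veh, NRRA against RA, NRRA against NR and the interaction, and changed no call. Correlations of replicate differences between conditions ran from -0.03 to 0.02 over 20477 genes, so no effect shared by replicate number was seen. This cannot show whether the cultures were set up in pairs. Without the 2-fold threshold those counts stand in place of 0. DESeq2 gave 2 members for NRRA against RA.

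With 1 library left out the counts ranged from 7 to 8, 4 to 6, 6 to 8, 1 to 5, 5 to 7 and 2 to 5 in the same order. *Cbx3* in RA ranged from -0.07 to 0.21, *Yaf2* in NRRA from -0.07 to 0.10, *Max* in NRRA against RA from -0.02 to 0.07, and the *Max* interaction from -0.07 to 0.05. Per longest transcript the Veh levels in RPKM were 12.3 for *Mga*, 40.5 for *Max*, 18.1 for *E2f6*, 59.2 for *Tfdp1*, 10.4 for *Pcgf6*, 15.1 for *L3mbtl2*, 19.9 for *Cbx3*, 17.8 for *Yaf2* and 6.91 for *Rybp*, which moved *Cbx3* from rank 6 to 3, *Yaf2* from 3 to 5 and *Rybp* below *Pcgf6*.

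With 2 libraries per condition small changes near 0.2 often rested on 1 library. Other scalings shifted the median of all genes by at most 0.036 in log2.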
